A study of Mus musculus with 24 samples.

Results

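The calcineurin and NFAT signalling genes described here are 9 of the 36144 genes in the count table. They are the NFAT transcription factor genes Nfatc1, Nfatc2, Nfatc3 and Nfatc4, the calcineurin subunit genes Ppp3ca, Ppp3cb and Ppp3r1, and the calcineurin regulator genes Rcan1 and Rcan2. The others were taken as named members of the pathway, and Nfatc1 was chosen by its measured level, which was higher in Th-Cre than in WT mice under DCZ, so that its values in the DCZ libraries are given without a test. All 9 passed the filter on low counts, as did 13129 genes in all. RNA with poly(A) tails was sequenced from interscapular brown adipose tissue (iBAT), the heat-producing fat between the shoulder blades, of mice aged 6 to 8 months. There were 4 groups of 6 mice with 3 of each sex: Th-Cre mice (B6.129X1- Tht1(cre)Te/Kieg) given deschloroclozapine (DCZ), Th-Cre mice given saline, wild-type (WT, C57Bl/6J) mice given DCZ, and WT mice given saline, all sampled 30 minutes later. In Th-Cre mice the regulatory sequence of the tyrosine hydroxylase gene Th drives Cre recombinase wherever catecholamines are made, which includes sympathetic neurons. DCZ binds designer receptors derived from muscarinic ones, and the series title speaks of activating the sympathetic neurons that project to this tissue. The sources used here do not give the receptor, its delivery or whether WT mice received it.

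Calcineurin is a phosphatase that is switched on by calcium and calmodulin. It consists of a catalytic subunit (encoded by Ppp3ca, Ppp3cb or Ppp3cc) and a calcium-binding regulatory subunit (Ppp3r1). It removes phosphates from NFAT proteins in the cytosol, which then enter the nucleus and bind DNA together with partners such as AP-1, until kinases return them to the cytosol. Rcan proteins bind calcineurin and restrain it, and an internal promoter of Rcan1 is itself switched on by NFAT, which closes a feedback loop. In brown fat, noradrenaline from sympathetic nerves acts through beta receptors that raise cAMP and through alpha-1 receptors that raise calcium.

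NFAT proteins bind a short core, GGAAA, which reads on the opposite strand as TTTCC. The 250 bases before the annotated start were read for the pair of genes whose levels were highest in Th-Cre mice under saline relative to WT, and for the internal start of Rcan1, because this is where the feedback by NFAT is known to act. The sequences are from the RefSeq promoter table on GRCm38.p6, which held 12 starts for 7 of the 9 genes. Capitals mark each NFAT core on either strand.
Nfatc3, first start, plus strand, chr8:106058568-106058817: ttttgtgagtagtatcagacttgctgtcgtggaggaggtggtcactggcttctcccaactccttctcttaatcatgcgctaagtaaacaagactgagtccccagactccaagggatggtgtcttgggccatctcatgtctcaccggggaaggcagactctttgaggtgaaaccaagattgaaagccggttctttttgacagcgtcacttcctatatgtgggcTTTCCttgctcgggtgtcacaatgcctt
Ppp3cb, minus strand, chr14:20546574-20546823: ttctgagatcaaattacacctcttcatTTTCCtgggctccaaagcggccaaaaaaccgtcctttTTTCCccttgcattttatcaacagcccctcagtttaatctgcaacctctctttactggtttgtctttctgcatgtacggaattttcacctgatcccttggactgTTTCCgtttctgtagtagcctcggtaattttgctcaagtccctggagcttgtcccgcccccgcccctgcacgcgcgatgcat
Rcan1, internal start, minus strand, chr16:92400079-92400328: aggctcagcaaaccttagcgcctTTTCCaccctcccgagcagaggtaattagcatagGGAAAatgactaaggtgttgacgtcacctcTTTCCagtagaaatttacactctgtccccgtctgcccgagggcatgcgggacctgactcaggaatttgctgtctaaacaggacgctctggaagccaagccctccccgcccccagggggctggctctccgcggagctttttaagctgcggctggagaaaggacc
The window of Nfatc3 held 1 NFAT core, and those of Ppp3cb and of the internal Rcan1 start held 3 each. Of 32851 promoter windows of the same length, 55.6% held at least 1 core and 6.4% held 3 or more. The Rcan1 window also held 1 copy of the cAMP response element TGACGTCA, found in 1.5% of windows, which contains the shorter core TGACG once on each strand. The other Rcan1 start had 0 NFAT cores. Among the remaining windows of the members, the first Nfatc2 start and the Nfatc4 start also held 3 cores. The second Nfatc2 start held 1, and the Rcan2 starts held 2, 0 and 0. The Ppp3r1 start and the second Nfatc3 start held 0. A match to these letters is a description and not evidence of binding.

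The tissue had the markers of brown fat in every library, with Ucp1 at 1752 CPM or more and Cidea at 1183 CPM or more, and Th gave 1 read over all 24 libraries. Library totals ran from 11.9 to 22.9 M estimated counts. Transcripts of skeletal muscle stood out in 6 libraries (3 Th-Cre saline, 2 Th-Cre DCZ and 1 WT saline), in which the mean of 13 muscle markers was 1.77 log2 CPM or more, against -0.16 or less in the other 18. Each comparison is therefore also given without them. All WT libraries carry lower library numbers (1 to 12) than all Th-Cre libraries (13 to 24), so genotype and library number cannot be told apart. Within WT mice, DCZ libraries hold 5 of the 6 lower numbers and saline libraries 5 of the 6 upper ones.

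Per kilobase of exon, the regulatory subunit and Rcan1 had the highest levels and Nfatc2 the lowest. Over all 24 libraries Ppp3r1 averaged 13.2 ± 1.45 CPM per kb (SD, n = 24), Rcan1 8.89 ± 1.23, Ppp3cb 5.82 ± 0.758 and Ppp3ca 4.57 ± 0.29. The transcription factor genes stood lower, with Nfatc3 at 2.48 ± 0.431 CPM per kb, Nfatc1 at 2.30 ± 0.452 and Nfatc4 at 0.770 ± 0.161. Rcan2 stood at 0.519 ± 0.171 CPM per kb and Nfatc2, the NFAT best known from T cells, at 0.0834 ± 0.0299. Neighbours in this order lay within 1 SD of each other for Nfatc3 and Nfatc1 and had overlapping ± SD ranges for Nfatc4 and Rcan2. Shares were taken of the length-corrected reads of Nfatc1, Nfatc2, Nfatc3 and Nfatc4. The related gene Nfat5 was left out of them. Its median over all 24 libraries, not corrected for length, was 31.2 CPM, against 29.96 CPM for Nfatc3 and 17.05 CPM for Nfatc1. Of the shares, Nfatc3 took 43.9% ± 4.32, Nfatc1 40.7% ± 4.21, Nfatc4 13.97% ± 3.81 and Nfatc2 1.48% ± 0.492 (SD, n = 24). Nfatc3 and Nfatc1 thus supplied most of the transcripts of Nfatc1, Nfatc2, Nfatc3 and Nfatc4. As group means, given without a test, Nfatc3 took 43.9% and Nfatc1 43.8% in Th-Cre DCZ, 45.4% and 41.0% in Th-Cre saline, 46.0% and 36.0% in WT DCZ, and 40.2% and 41.8% in WT saline libraries, where the values of Nfatc1 under DCZ are those by which it was chosen. Of the reads of Ppp3ca, Ppp3cb and Ppp3r1 taken the same way, Ppp3r1 made up 55.9% ± 1.54, Ppp3cb 24.6% ± 1.6 and Ppp3ca 19.5% ± 1.87. Lengths are those of all annotated exons merged, so a gene that uses few of them in this tissue is understated.

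**Figure D1:**
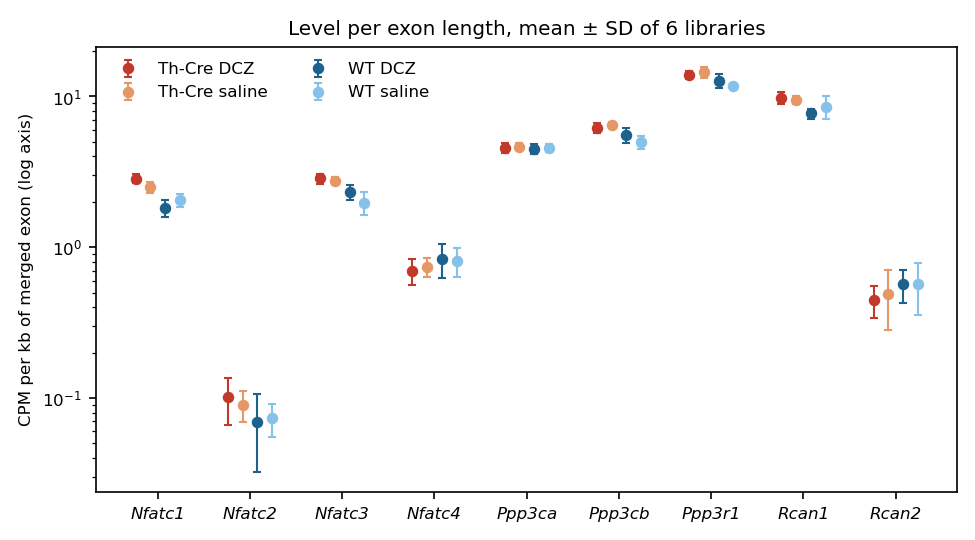
Mean ± SD of CPM per kilobase of merged exon for the 9 genes on a log axis, with the 4 groups of 6 libraries side by side. Ppp3r1 and Rcan1 lie at the top, Nfatc3 and Nfatc1 below them, and Nfatc2 lowest. In WT DCZ libraries Nfatc3 (2.33 CPM per kb) stands above Nfatc1 (1.82 CPM per kb).

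The saline groups compare Th-Cre with WT mice without any ligand, where genotype and library number cannot be told apart. The saline libraries took no part in the choice of Nfatc1, so all 9 genes were tested. The members and tests were chosen with earlier results of these data known, so the choice was not blind to these libraries. Nfatc3, Ppp3cb, Ppp3r1 and Nfatc1 were higher in Th-Cre mice, by 1.22-fold to 1.39-fold, and Ppp3ca, Nfatc2, Nfatc4, Rcan1 and Rcan2 did not pass the test. Thus 4 of 9 genes were called higher and 0 lower, where 24.9% of all 13129 tested genes were called (12.5% higher and 12.4% lower), at an adjusted p under 0.05 in the edgeR quasi-likelihood test (p-values adjusted after Benjamini and Hochberg). The median log2 fold change of the 9 genes was 0.27, against -0.01 over all tested genes. Calls are thus common between these groups. Nfatc1, included in this count and median, was chosen on the same genotype difference in the DCZ mice. Of the 9 genes 2, Nfatc3 and Ppp3cb, had Th-Cre libraries that all lay above the WT ones, as had 2.81% of all genes.

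Nfatc3 encodes a broadly expressed NFAT protein and lies on chromosome 8 (106058840 to 106130537, plus strand, GRCm38). It ran from 30.7 CPM through a median of 31.7 to 34.7 CPM in Th-Cre saline libraries, against 19.5, 22.2 and 30.1 CPM in WT saline libraries. All 6 Th-Cre libraries lay above every WT library. The fitted difference was 1.39-fold (log2 fold change 0.48 ± 0.0848 SE, 95% interval 0.30 to 0.65, adjusted p = 0.00126). Nfatc1, a factor known from heart valves, osteoclasts and T cells (chromosome 18, 80606205 to 80713071, minus strand), had 16.2, 18.6 and 20.5 CPM in Th-Cre saline as lowest, median and highest, against 13.8, 14.9 and 17.3 CPM in WT saline libraries. Here 5 of 6 Th-Cre libraries lay above every WT library. Its log2 fold change was 0.29 ± 0.0853 (1.22-fold, adjusted p = 0.0174). Nfatc2, on chromosome 2 (168476410 to 168601657, minus strand), rested on 5 to 24 reads a library. It had 0.772, 0.836 and 1.24 CPM in Th-Cre saline libraries and 0.473, 0.802 and 0.973 CPM in WT saline libraries. These ranges overlap, and the 95% interval of the fold, 0.774 to 1.88, admits a sizeable difference either way (adjusted p = 0.554). Nfatc4, known from nervous and cardiovascular tissue (chromosome 14, 55823144 to 55833943, plus strand), had 3.21, 4.40 and 4.99 CPM in Th-Cre saline and 3.18, 5.07 and 5.69 CPM in WT saline libraries, with a log2 fold change of -0.12 ± 0.174 (adjusted p = 0.633). Among Nfatc1, Nfatc2, Nfatc3 and Nfatc4, Nfatc4 was thus the gene without a positive value here.

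The regulatory subunit and the beta catalytic subunit of calcineurin were higher in Th-Cre mice under saline, and the alpha catalytic subunit was not. Ppp3cb, which encodes the beta catalytic subunit (chromosome 14, 20499364 to 20546573, minus strand), had 53.7, 58.0 and 60.5 CPM in Th-Cre saline libraries against 38.8, 43.2 and 51.1 CPM in WT saline libraries. All 6 Th-Cre libraries lay above every WT library. The log2 fold change was 0.39 ± 0.0714 (1.31-fold, adjusted p = 0.00143). Ppp3r1, the gene of the calcium-binding regulatory subunit (chromosome 11, 17159263 to 17200375, plus strand), had 39.7, 47.5 and 51.0 CPM in Th-Cre saline and 35.9, 37.9 and 41.0 CPM in WT saline libraries. For this gene 5 of 6 Th-Cre libraries lay above every WT library, and the log2 fold change was 0.30 ± 0.0688 (1.23-fold, adjusted p = 0.00424). Ppp3ca, the gene of the alpha catalytic subunit (chromosome 3, 136670124 to 136937727, plus strand), had 42.9, 46.2 and 49.7 CPM in Th-Cre saline libraries and 41.5, 46.3 and 48.5 CPM in WT saline libraries. The groups overlap almost wholly, and the interval of the fold ran from 0.932 to 1.10 (adjusted p = 0.83). Reads of Ppp3cb relative to those of Ppp3ca in the same library stood at 1.12 to 1.41 in Th-Cre saline and 0.799 to 1.11 in WT saline libraries, a ratio computed after these values were seen and given without a test. It was 1.02 to 1.31 in Th-Cre DCZ and 0.901 to 1.26 in WT DCZ libraries, where the ranges overlap.

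Rcan1 and Rcan2 did not pass the test under saline. Counts are per gene symbol, so values of Rcan1 do not separate transcripts of its internal start from the others. Rcan1, a regulator of calcineurin (chromosome 16, 92391953 to 92470867, minus strand), had 26.6, 29.1 and 31.1 CPM in Th-Cre saline and 21.9, 24.8 and 35.3 CPM in WT saline libraries. The highest value of all 24 libraries, 35.3 CPM, came from WT saline mouse 9, and the log2 fold change was 0.15 ± 0.0896 (adjusted p = 0.229). Without that library it was 0.25 (adjusted p = 0.0213), the only member whose call changed when any library was left out in turn. Rcan2, its relative known in human fibroblasts as a gene responsive to thyroid hormone (chromosome 17, 43801351 to 44039516, plus strand), had 1.10, 2.01 and 3.32 CPM in Th-Cre saline and 1.68, 2.08 and 3.89 CPM in WT saline libraries. Values of Rcan2 spread widely within each group, and the log2 fold change was -0.23 ± 0.25 (adjusted p = 0.537).

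**Figure D2:**
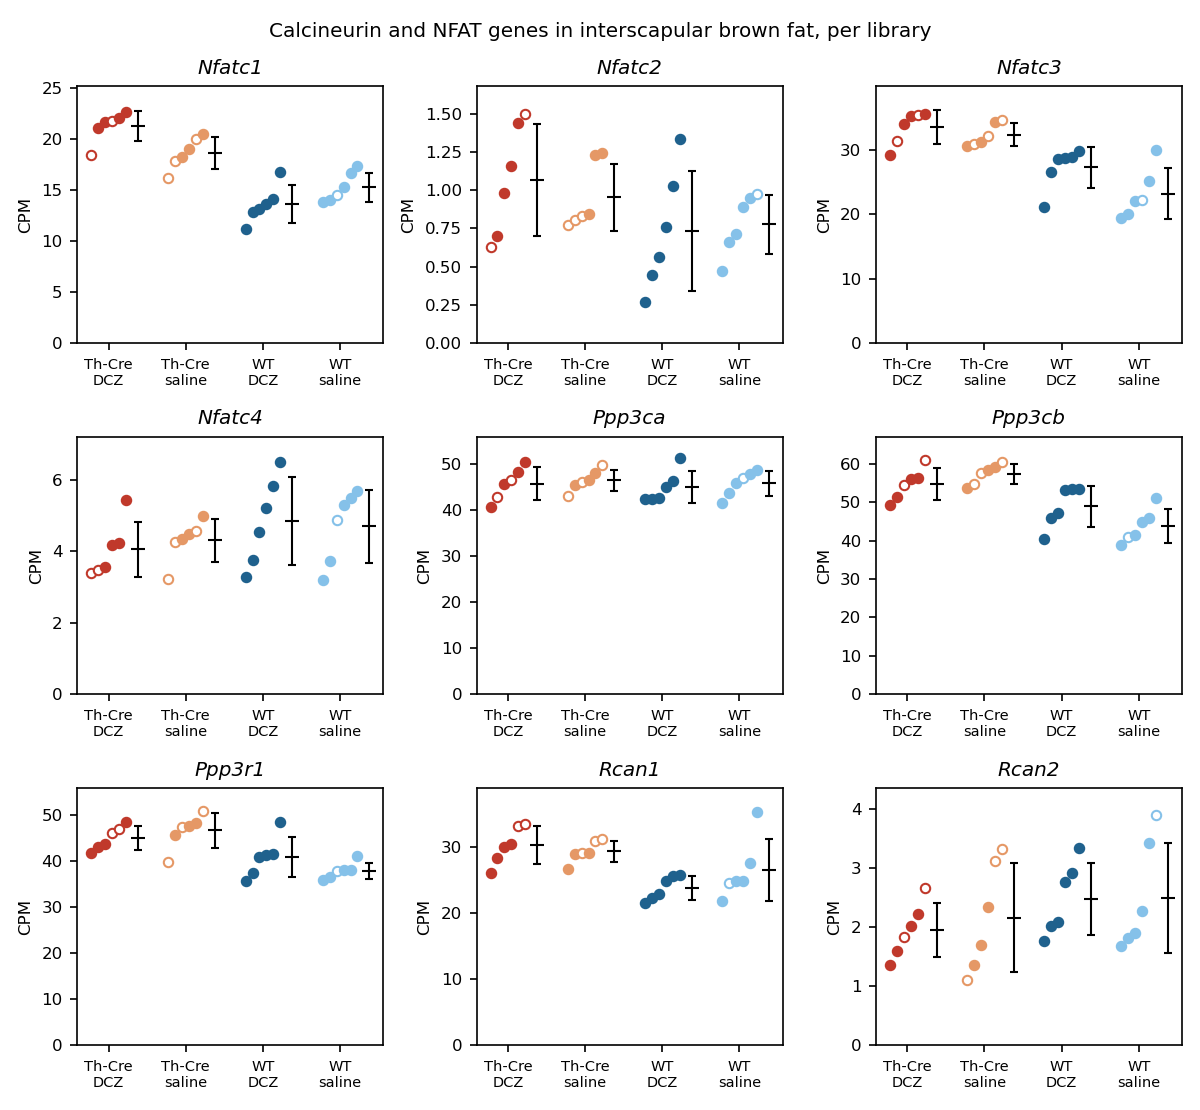
CPM of each gene in each of the 24 libraries, with the mean ± SD (n = 6) beside each group and open circles for the 6 libraries with muscle transcripts. For Nfatc3 and Ppp3cb the Th-Cre saline points lie above all WT saline points, and for Ppp3ca the 4 groups coincide.

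Markers of other cell types were compared in the same libraries, where 24.9% of all tested genes were called. The summed level of 12 brown adipocyte markers was 5637 to 7716 CPM in Th-Cre saline and 7780 to 10314 CPM in WT saline libraries, without overlap. Much of this sum was Ucp1, with a median of 3735 CPM in Th-Cre saline and 4641 CPM in WT saline libraries. Of the 12 markers 1 was called higher and 3 lower, and 7 had a positive log2 fold change, with a median of 0.07 over the list. That of 12 endothelial markers was 862 to 976 CPM (median 876) in Th-Cre saline and 823 to 1534 CPM (median 1235) in WT saline libraries, with 8 of 12 called lower in Th-Cre. Of 8 markers of smooth muscle and pericytes 5 were lower, with sums of 490 to 518 CPM in Th-Cre saline and 501 to 687 CPM in WT saline libraries. Lymphocyte markers, of interest because lymphocytes use NFAT, summed to 3.22 to 6.81 CPM in Th-Cre saline and 4.27 to 9.21 CPM in WT saline libraries, with 2 of 9 tested markers lower. None of the markers of these 4 types was at 0 in all libraries of either group. The part of these shifts in the members' values was not tested, and in whole tissue fewer cells of a type and less RNA per cell cannot be told apart. Sums of 13 skeletal muscle markers were 1.29 to 1467 CPM in Th-Cre saline and 1.12 to 279 CPM in WT saline libraries. Without the 6 libraries with muscle transcripts the log2 fold changes were 0.48 for Nfatc3, 0.38 for Ppp3cb, 0.32 for Ppp3r1 and 0.32 for Nfatc1, about as large as with them. With 3 Th-Cre saline against 5 WT saline libraries left, their adjusted p were 0.0501, 0.0509, 0.0615 and 0.0808, so that edgeR called 0 of the 9 genes (4 at an unadjusted p under 0.05), and 109 genes were called in all.

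**Figure D3:**
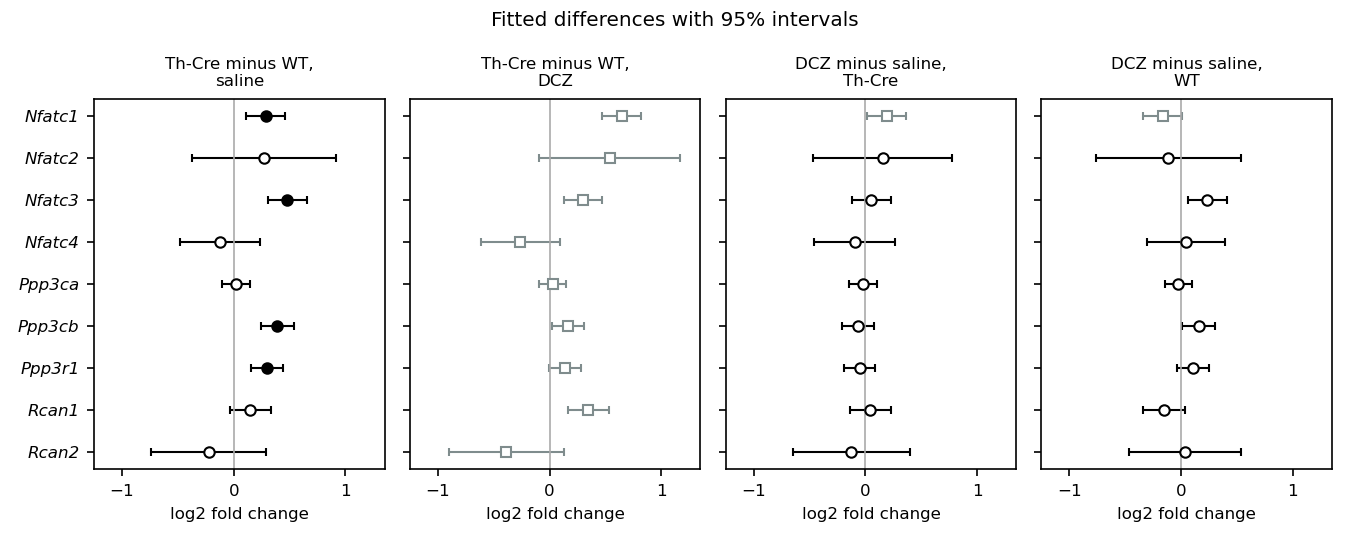
Fitted log2 fold changes of the 9 genes with 95% intervals in 4 comparisons. Filled circles passed the test, open circles did not, and grey squares mark values given without a test. Intervals on grey squares are a description and are not to be read against 0, because DCZ libraries chose Nfatc1. The 4 filled circles, all to the right of 0, are Nfatc1, Nfatc3, Ppp3cb and Ppp3r1 for Th-Cre against WT under saline.

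Under DCZ, the comparison in which Nfatc1 was chosen, values of Th-Cre and WT mice are given as a description. Nfatc1 had 18.5, 21.7 and 22.7 CPM in Th-Cre DCZ libraries as lowest, median and highest, against 11.2, 13.4 and 16.8 CPM in WT DCZ libraries. The groups do not overlap, and the log2 fold change was 0.64 ± 0.0849 (1.56-fold). The gap stood between the highest levels of any group, in Th-Cre DCZ, and the lowest, in WT DCZ. Rcan1 had 26.1, 30.2 and 33.5 CPM in Th-Cre DCZ and 21.5, 23.8 and 25.7 CPM in WT DCZ libraries, with a log2 fold change of 0.35 ± 0.0893. Nfatc1 was chosen on these libraries, so its gap is not counted. Of the other 8 genes, Rcan1 was the 1 whose groups did not overlap, which 1.81% of all tested genes did in that direction, and this is given as a description. At the test's threshold 13.8% of all genes were called in this comparison. Nfatc3 had 29.2, 34.7 and 35.7 CPM in Th-Cre DCZ and 21.2, 28.7 and 29.8 CPM in WT DCZ libraries (0.30 ± 0.0837), with 5 of 6 Th-Cre libraries above every WT library. Ppp3cb had 49.2, 55.4 and 61.0 CPM in Th-Cre DCZ and 40.4, 50.2 and 53.5 CPM in WT DCZ libraries (0.17 ± 0.071), and Ppp3r1 had 41.7, 44.9 and 48.5 CPM in Th-Cre DCZ and 35.7, 41.1 and 48.4 CPM in WT DCZ libraries (0.14 ± 0.0685). Both pairs of ranges overlap. Ppp3ca stood at 0.03 ± 0.0588, with 40.6, 46.0 and 50.3 CPM in Th-Cre DCZ and 42.3, 43.6 and 51.1 CPM in WT DCZ libraries. The genes of low level had wide errors: Nfatc2 stood at 0.54 ± 0.306, Nfatc4 at -0.26 ± 0.173 and Rcan2 at -0.39 ± 0.249. Without the libraries with muscle transcripts the log2 fold change was 0.68 for Nfatc1, 0.27 for Rcan1, 0.30 for Nfatc3, 0.12 for Ppp3cb and 0.11 for Ppp3r1.

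DCZ against saline within Th-Cre mice compares tissue taken 30 minutes after the ligand or the vehicle. Of the 8 members tested, edgeR, DESeq2 and limma-voom each called 0, with 0 at an unadjusted p under 0.05. Across all genes 0.0229% were called (3 of 13129, with 745 at an unadjusted p under 0.05), so few genes of any kind passed. Nfatc1, not tested here because DCZ libraries chose it, averaged 21.3 ± 1.47 CPM in Th-Cre DCZ and 18.6 ± 1.56 CPM in Th-Cre saline libraries (SD, n = 6), a log2 fold change of 0.19 ± 0.0842. The remaining 8 genes had adjusted p of 0.998 or more. For the abundant ones the intervals of the fold were narrow: 0.906 to 1.07 for Ppp3ca, 0.863 to 1.06 for Ppp3cb, 0.875 to 1.06 for Ppp3r1, 0.921 to 1.17 for Nfatc3 and 0.908 to 1.17 for Rcan1. The intervals of the fold were wide for Nfatc2 (0.723 to 1.72), Nfatc4 (0.729 to 1.20) and Rcan2 (0.637 to 1.32). Without the libraries with muscle transcripts 0 of the 8 were called by edgeR, again with 0 at an unadjusted p under 0.05, and Nfatc1 stood at 0.20 ± 0.111.

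The same comparison was made in WT mice, with the library order named above. Of the 8 members tested, 0 were called by edgeR, DESeq2 or limma-voom, and 2, Nfatc3 and Ppp3cb, had an unadjusted p under 0.05 in edgeR (background 0.00762% of all genes, 1 of 13129, with 1137 at an unadjusted p under 0.05). Nfatc3 averaged 27.3 ± 3.18 CPM in WT DCZ and 23.2 ± 3.94 CPM in WT saline libraries, a log2 fold change of 0.23 ± 0.0847 (adjusted p = 0.527), with 5 of 6 DCZ libraries above the saline mean. Ppp3cb averaged 48.9 ± 5.38 CPM in WT DCZ and 43.8 ± 4.41 CPM in WT saline libraries (0.16 ± 0.0713, adjusted p = 0.547). Both had unadjusted intervals above 0, at 0.06 to 0.41 and 0.01 to 0.31, that did not survive adjustment. Without the libraries with muscle transcripts Nfatc3 stood at 0.21 ± 0.0942 and Ppp3cb at 0.13 ± 0.0753 (adjusted p = 0.895 for both), and 1 rather than 2 members had an unadjusted p under 0.05. Rcan1 averaged 23.8 ± 1.79 CPM in WT DCZ and 26.5 ± 4.69 CPM in WT saline libraries (-0.15 ± 0.0897, adjusted p = 0.616). Much of this gap came from WT saline mouse 9, the highest library named above, and without it the log2 fold change was -0.05 (adjusted p = 0.9). Nfatc1, without a test, averaged 13.6 ± 1.84 CPM in WT DCZ and 15.3 ± 1.44 CPM in WT saline libraries (-0.17 ± 0.0857). The other genes had adjusted p of 0.631 to 0.978.

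The difference between these DCZ effects, Th-Cre minus WT, was tested as the interaction. It passed for 0 of the 8 genes tested by edgeR, DESeq2 or limma-voom, with Ppp3cb, 1 gene, at an unadjusted p under 0.05 in edgeR (background 0.00762% of all genes called, 1 of 13129, with 980 at an unadjusted p under 0.05). Ppp3cb had -0.22 ± 0.101 (adjusted p = 0.643), Nfatc3 -0.18 ± 0.119 (0.747), Ppp3r1 -0.16 ± 0.0971 (0.721) and Rcan1 0.20 ± 0.126 (0.735), all as log2 differences. For Nfatc1 the value was 0.36 ± 0.12, with opposite signs in the genotypes, and it has no test because both DCZ groups entered the choice of this gene. With the libraries with muscle transcripts left out, the values were -0.26 ± 0.121 for Ppp3cb, -0.18 ± 0.15 for Nfatc3, -0.21 ± 0.124 for Ppp3r1, 0.19 ± 0.158 for Rcan1 and 0.36 ± 0.142 for Nfatc1, and edgeR called 0 of the 8 tested, with 1 at an unadjusted p under 0.05.

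Female and male mice were compared over all 24 libraries with the group as a term, a contrast the choice of Nfatc1 did not use. By edgeR, DESeq2 or limma-voom 0 of the 9 members passed, with 2 (Nfatc3 and Rcan2) at an unadjusted p under 0.05 in edgeR. At the threshold of the edgeR test 8.07% of all genes were called (1059 of 13129, with 2980 at an unadjusted p under 0.05). The smallest adjusted p were those of Nfatc3, with 30.4 ± 4.59 CPM in females and 27.7 ± 5.34 CPM in males (SD, n = 12 each; log2 fold change 0.14 ± 0.0595, adjusted p = 0.16), and Rcan2, with 2.54 ± 0.759 CPM in females and 1.99 ± 0.652 CPM in males (0.37 ± 0.177, adjusted p = 0.216). Nfatc1 averaged 17.02 ± 3.92 CPM in females and 17.41 ± 2.9 CPM in males (-0.05 ± 0.0601, adjusted p = 0.679). Beside these values, 8 of 13 skeletal muscle markers and 3 of 4 tested mast cell markers were higher in females. Without the 6 libraries with muscle transcripts Rcan2 stood at 0.07 ± 0.183 and Nfatc3 at 0.20 ± 0.0735 (adjusted p = 0.882 and 0.106).

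Beyond the groups, some of the 9 genes varied together from mouse to mouse. Log2 CPM values were taken after removal of the group means and of sex, and 36 pairs were compared over the 24 libraries with permutation tests. Nfatc3 and Ppp3cb had a Pearson r of 0.804 (permutation p = 1.0e-05, the smallest 100000 permutations can give, adjusted over the 36 pairs 3.6e-04) and a Spearman rho of 0.711 (permutation p = 4.8e-04, adjusted 0.0124). Without the 2 libraries farthest from the median of Nfatc3, r was 0.708, and without the 6 libraries with muscle transcripts 0.800. The factor gene and the catalytic subunit gene thus were high or low in the same mice of a group. Where this r, or those of the pairs below, ranks among pairs of all tested genes was not examined. The other catalytic pair, Ppp3ca with Ppp3cb, had an r of 0.203 (permutation p = 0.388). Ppp3cb and Ppp3r1, whose products together form the enzyme, had an r of 0.630 (permutation p = 0.00224, adjusted 0.0269) and a rho of 0.571 (permutation p = 0.00693, adjusted 0.0832), so this pair passed in one measure only. Nfatc4 and Rcan1 ran in opposite directions, with an r of -0.706 (permutation p = 2.6e-04, adjusted 0.00468) and a rho of -0.695 (permutation p = 6.9e-04, adjusted 0.0124). Their r was -0.643 without the 2 libraries farthest from the median of Nfatc4 and -0.736 without those with muscle transcripts. For Nfatc1 the 8 correlations with the other genes had r between -0.14 and 0.19.

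**Figure D4:**
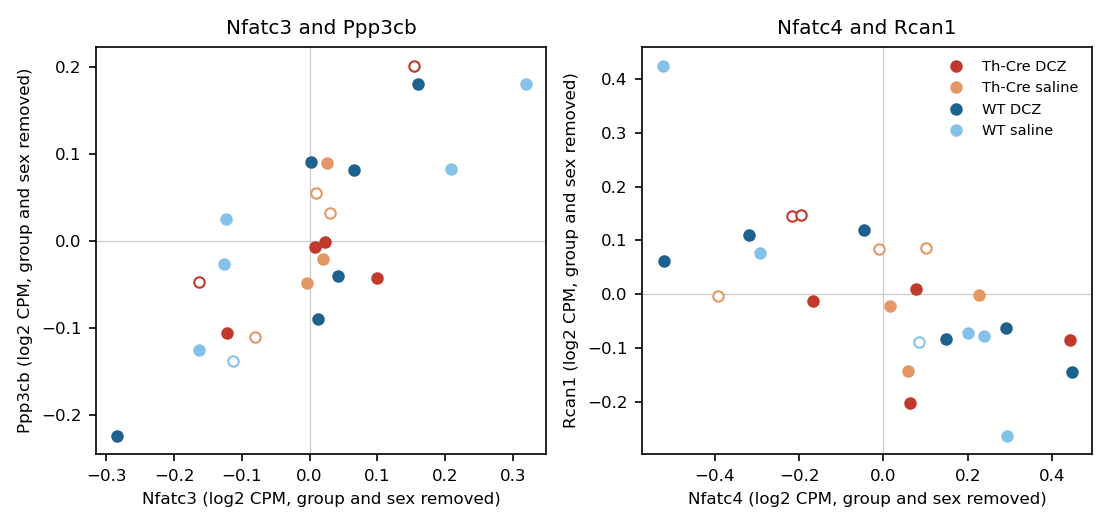
Residual log2 CPM of Ppp3cb against Nfatc3 (left) and of Rcan1 against Nfatc4 (right) in the 24 libraries after removal of group and sex, coloured by group, with open circles for libraries with muscle transcripts. Points rise together on the left (r = 0.804) and run downward on the right (r = -0.706).

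By the same residuals, the tested genes most like Nfatc1 across the 24 libraries were Kif23 (r = 0.713), Mtus2 (r = 0.688) and Adamtsl3 (r = 0.673), given as a description. Kif23 and Mtus2 are at low levels, with mean log2 CPM of -0.56 and -0.60, and Adamtsl3 at 2.49. Without the libraries with muscle transcripts their r were 0.715, 0.701 and 0.520.

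The rest of the pathway was followed through lists of 91 genes around the members, of which 77 were tested. Under saline 7 were higher and 11 lower in Th-Cre than in WT mice, close to the background of 12.5% higher and 12.4% lower given above, and their median log2 fold change was -0.04. Without the 6 libraries with muscle transcripts edgeR called 0 of 77, with 19 at an unadjusted p under 0.05. Without 1 library the number called ran from 11 (without WT saline mouse 12) to 31 (without WT saline mouse 2). Of the 17 called genes named below, 9 kept their call whichever library was left out: Stim1, Csnk1d, Mapk9, Chp1, Ppia, Atp2b4, Adamts1, Vegfa and Fabp4. Without WT saline mouse 12, 7 of the other 8 (Akap5, Gsk3a, Itpr3, Mef2c, Plcg2, Ppp3cc and Stim2) had adjusted p of 0.0537 to 0.133. Akap5 and Itpr3 lost their call without that library only. The call was lost without any of 2 libraries for Gsk3a, 4 for Stim2, 6 for Plcg2, 7 for Ppp3cc, and 9 for Mef2c and for Foxp1. The values that follow are log2 fold changes with SE and adjusted p from the same fit.

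Of the remaining calcineurin subunits, Ppp3cc, a catalytic isoform known from testis, was higher in Th-Cre saline mice, at 12.5 ± 0.734 CPM against 10.5 ± 0.885 CPM in WT saline mice (0.26 ± 0.0913, adjusted p = 0.0428), and the testis regulatory subunit Ppp3r2 was too low to test. Of 8 inhibitors and anchors, 1 was higher and 2 were lower, where 24.9% of all tested genes were called. Chp1, a calcineurin B homologous protein, had 288 ± 19.1 CPM in Th-Cre saline and 233 ± 29.2 CPM in WT saline mice (0.31 ± 0.0896, adjusted p = 0.0157). Akap5, which tethers calcineurin and protein kinase A to membranes, had 1.62 ± 0.54 CPM in Th-Cre saline and 2.76 ± 0.638 CPM in WT saline mice (-0.79 ± 0.233, adjusted p = 0.0167). Ppia, the cyclophilin through which cyclosporin blocks calcineurin, had 384 ± 17.6 CPM in Th-Cre saline and 456 ± 27.1 CPM in WT saline mice (-0.25 ± 0.0714, adjusted p = 0.0145). The 3 calmodulin genes had values between -0.07 and 0.06, and 0 passed by edgeR, DESeq2 or limma-voom or had an unadjusted p under 0.05.

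Of 17 genes of calcium entry and release, 1 was higher and 5 were lower in Th-Cre saline mice. Beside this and the lists below, 24.9% of all tested genes were called in this comparison. Without the 6 libraries with muscle transcripts edgeR called 0 genes of these lists. The sensors of the calcium store had opposite signs. Stim1, which opens Orai channels when the store empties, had 116 ± 4.52 CPM in Th-Cre saline and 85.3 ± 9.97 CPM in WT saline mice (0.45 ± 0.0691, adjusted p = 0.000569). Its relative Stim2 had 13.1 ± 1.34 CPM in Th-Cre saline and 16.9 ± 2.15 CPM in WT saline mice (-0.37 ± 0.116, adjusted p = 0.0237). The inositol trisphosphate receptor gene Itpr3 (-0.49 ± 0.143, adjusted p = 0.0146), the calcium pump gene Atp2b4 (-0.38 ± 0.105, adjusted p = 0.011) and the phospholipase gene Plcg2 (-0.72 ± 0.243, adjusted p = 0.0328) were lower. Among 12 kinases and exporters that return NFAT to the cytosol, 3 were higher and 0 lower: Csnk1d (0.34 ± 0.071, adjusted p = 0.00264), Mapk9 (0.32 ± 0.0854, adjusted p = 0.00929) and Gsk3a (0.24 ± 0.076, adjusted p = 0.0226). Of 12 NFAT relatives and partner factors, Foxp1 was higher (0.32 ± 0.114, adjusted p = 0.0431) and Mef2c, a factor that calcineurin activates in muscle, lower (-0.40 ± 0.14, adjusted p = 0.0379). Among 9 other tested calcineurin substrates, such as the CREB coactivators, 0 passed by edgeR, DESeq2 or limma-voom, and 2 had an unadjusted p under 0.05 in edgeR.

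Of 25 genes reported elsewhere as NFAT targets 15 were tested, and 3 were lower and 0 higher in Th-Cre saline mice. Adamts1, a secreted protease, had 15.8 ± 3.07 CPM in Th-Cre saline and 29.2 ± 10.2 CPM in WT saline mice (-0.87 ± 0.2, adjusted p = 0.00399). Vegfa, the vascular growth factor gene, had 445 ± 54.3 CPM in Th-Cre saline and 541 ± 46.2 CPM in WT saline mice (-0.29 ± 0.0798, adjusted p = 0.0114), and Fabp4, a fatty acid carrier of adipocytes, -0.29 ± 0.0767 (adjusted p = 0.00902). The list had a median of -0.32, and 24.9% of all tested genes were called in this comparison. Without the libraries with muscle transcripts edgeR called 0 of the 15, with 3 at an unadjusted p under 0.05, and the median was -0.23. Most of the target list is known from immune cells and bone, and 10 of its genes were too low to test here.

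**Figure D5:**
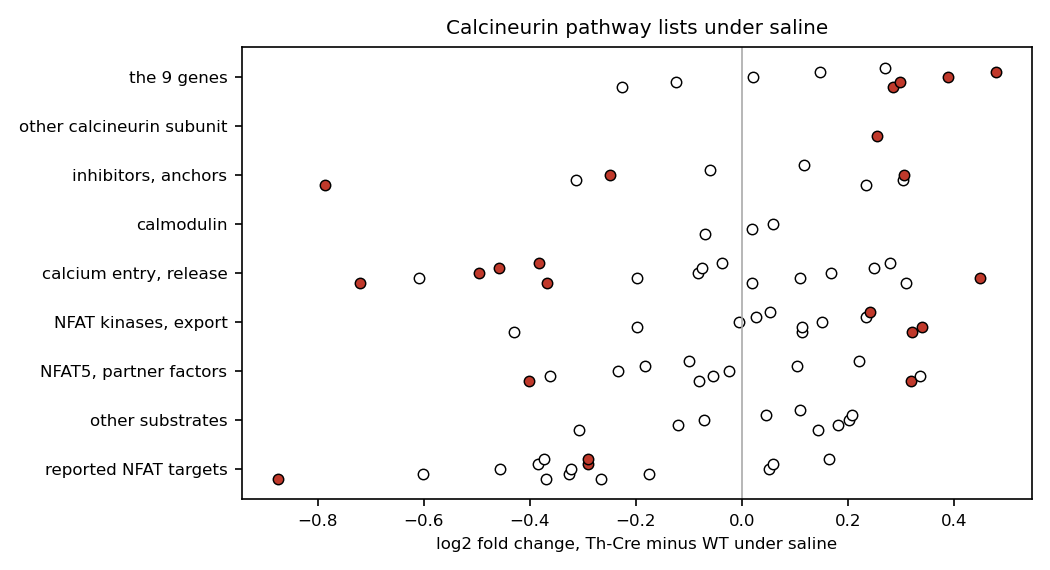
Log2 fold changes, Th-Cre minus WT under saline, of the 9 genes and of each tested gene in the lists around them, with filled points for genes that passed the test. The filled points of the 9 genes and of the NFAT kinases lie to the right of 0 and those of the reported targets to the left. Filled points of the inhibitors and anchors, the calcium genes and the partner factors lie on both sides. Of all tested genes 24.9% were called in this comparison. Without the 6 libraries with muscle transcripts edgeR called 0 of the 77 list genes and 0 of the 9 genes.

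With DCZ in Th-Cre mice 1 of the 77 genes passed. Jun, a subunit of the AP-1 factor that binds DNA beside NFAT, had 171 ± 67.1 CPM in Th-Cre DCZ and 63.3 ± 27.2 CPM in Th-Cre saline mice (1.42 ± 0.222, adjusted p = 0.00514). The reported NFAT targets had a median of 0.12 there, with 9 of 15 positive and 0 called by edgeR (5 at an unadjusted p under 0.05) or limma-voom, and 1 by DESeq2. Without the libraries with muscle transcripts Jun stood at 1.87 ± 0.25 (adjusted p = 0.00339) and 0 of the reported targets were called by edgeR, with 4 at an unadjusted p under 0.05. In WT mice 0 of 77 passed by edgeR (11 at an unadjusted p under 0.05), DESeq2 or limma-voom, and the smallest p were those of Stim1 (0.23 ± 0.069) and Homer3 (-0.37 ± 0.122), both at an adjusted p of 0.527. Without WT saline mouse 2, Stim1 passed (0.30, adjusted p = 0.0375), and without the libraries with muscle transcripts 0 of 77 passed by edgeR, with 8 at an unadjusted p under 0.05. For the interaction 0 of 77 passed by edgeR (16 at an unadjusted p under 0.05) or limma-voom and 3 by DESeq2, with Jun at 1.56 ± 0.312 and Adamts1 at 1.31 ± 0.279 closest (adjusted p = 0.136 and 0.147). Jun passed when the libraries with muscle transcripts were left out (1.91 ± 0.308, adjusted p = 0.0217). Both passed without 1 and the same Th-Cre DCZ library with muscle transcripts (adjusted p = 0.0231 for each), Jun also without 1 such Th-Cre saline library (adjusted p = 0.0223) and Adamts1 also without WT saline mouse 2 (adjusted p = 0.0294).

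Between the sexes, 2 of the 77 genes were higher and 8 lower in females (4.11% and 3.95% of all genes). The channel gene Orai3 had 33.7 ± 5.72 CPM in females and 28.9 ± 2.72 CPM in males (0.21 ± 0.0618, adjusted p = 0.0327), and Irf4, a partner of NFAT in lymphocytes and a regulator of brown fat, 108 ± 94.2 CPM in females and 52.4 ± 42.3 CPM in males (0.89 ± 0.255, adjusted p = 0.0314). The AP-1 genes Junb (-0.98 ± 0.254, adjusted p = 0.0183), Jund (-0.45 ± 0.122, adjusted p = 0.0219) and Jun (-0.56 ± 0.156, adjusted p = 0.0267) were lower in females. So were 5 of 15 reported targets, among them Egr3 with 3.20 ± 2.9 CPM in females and 8.28 ± 2.98 CPM in males (-1.56 ± 0.307, adjusted p = 0.00251) and Egr2 (-1.23 ± 0.35, adjusted p = 0.0298), both early response genes. Ccl2 (-0.93 ± 0.269, adjusted p = 0.0323), Adamts1 (-0.46 ± 0.14, adjusted p = 0.0427) and Fabp4 (-0.18 ± 0.0542, adjusted p = 0.0458) completed this group. After omission of the libraries with muscle transcripts 1 was higher and 7 were lower, and Irf4 and Fabp4 did not pass (adjusted p = 0.0754 and 0.089). Egr3, Junb and Jund kept their calls whichever library was left out, while the number called ran from 4 (without 1 Th-Cre saline library with muscle transcripts) to 12 (without WT DCZ mouse 1). The 9 members showed no such difference at the threshold.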

How the data were processed

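Polyadenylated RNA of iBAT from 24 mice, 1 library a mouse per the labels, was compared in 4 groups of 6. The submitters' processing notes name kallisto 0.44.0 and GRCm38.p6. The authors deposited estimated counts per gene symbol as whole numbers, and these were tested as deposited. They also deposited counts of reads per library, within 205 of the table's totals, and the percent that pseudoaligned, 84.2 to 88.7. The sources used here give neither the transcript set nor whether strand was used. Reads of genes that overlap could therefore be shared: Nfatc3 overlaps Gm27956 and Esrp2, Nfatc1 AC123818.1, Ppp3ca Gm42822, 4930599N24Rik and Gm44327, Ppp3cb 1810062O18Rik, Ppp3r1 Wdr92, Rcan1 Gm46555 and Rcan2 Gm24532.

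Genes were filtered with filterByExpr by group, which left 13129 genes with 99.9% of the reads. Library sizes were scaled by TMM, and values of CPM (counts scaled to a common library total) are on these sizes. A quasi-likelihood model (edgeR 4.0.16, R 4.3.3) was fitted to all 24 libraries with the 4 groups and sex as terms, and p-values were adjusted by Benjamini-Hochberg over all tested genes. SE was obtained as the log2 fold change over the root of F. Per-library levels for correlations are log2 CPM with a prior count of 2. The fitting was run on simulated counts drawn with the fitted spread and set changes in Th-Cre saline libraries only. The simulation did not model muscle transcripts or library order, and its outcome is not given here. Exon lengths and positions are from GENCODE M21 (GRCm38). Alternatives were DESeq2 1.42.0, limma-voom (limma 3.58.1), other size factors and filters, no term for sex, a muscle score as covariate, omission of the 6 libraries with muscle transcripts, and omission of each library in turn.

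The members, lists and tests were chosen with earlier results of these data known. All 9 members are named. Of the lists, up to 5 called genes each with the smallest adjusted p are named per tested comparison, or the 2 genes with the smallest p over all lists where none is called. The 3 genes most like Nfatc1 are those with the highest r.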

Additional observations from a re-analysis of the deposited data

How the results depend on the processing

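The 4 calls under saline (Nfatc1, Nfatc3, Ppp3cb, Ppp3r1) held under all other alternatives, and without any 1 library 4 to 5 members were called. Without the 6 libraries with muscle transcripts 0 were. The cause was not tested, and this alternative leaves fewer samples. Genes near 0 changed sign, all without a call. For Ppp3ca under saline the log2 fold change was -0.00816 with upper-quartile factors (-0.00734 to 0.0407 without 1 library), and for Ppp3ca in the interaction it was -0.00191 with RLE factors, -0.00845 without a filter and -0.00112 by DESeq2 (-0.0251 to 0.0408). Rcan2 with DCZ in WT stood at -0.0148 by limma-voom and -0.00855 without the term for sex (-0.115 to 0.166). Between females and males Nfatc4 stood at 0.0244 with the muscle covariate and 0.000345 without muscle libraries (-0.0702 to 0.0331), and Ppp3r1 at 0.0137 without muscle libraries (-0.0336 to 0.00546). Without 1 library, values also crossed 0 for Ppp3ca (-0.0510 to 0.0147) and Rcan2 (-0.250 to 0.0146) with DCZ in Th-Cre, Nfatc2 (-0.344 to 0.0601) and Nfatc4 (-0.0630 to 0.143) with DCZ in WT, and Rcan1 between the sexes (-0.0409 to 0.0339).

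Counts of called genes over the whole table moved more. The 3270 under saline became 109 without muscle libraries. Under DCZ the 1808 became 1081 from the groups compared alone and 535 without muscle libraries (850 to 2443 without 1 library). With DCZ in Th-Cre the 3 became 40 by DESeq2, 20 without a filter, 13 from the groups compared alone, 9 with the muscle covariate and 7 by limma-voom or without muscle libraries (3 to 18 without 1 library). With DCZ in WT the 1 became 12 by DESeq2 and 0 by limma-voom, with no filter, without the term for sex, from the groups compared alone or without muscle libraries (0 to 39). For the interaction the 1 became 16, 8, 2 and 4 by DESeq2, with no filter, without the term for sex and without muscle libraries (1 to 7). Reads limit Nfatc2 and Rcan2, with 5 to 24 and 20 to 68 a library. No paired analysis was possible because the groups share no mouse number.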
